A study of Mus musculus with 7 samples.

Results

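Ago2-bound miRNAs were sequenced from mouse plasma collected 8 h after status epilepticus (SE, a prolonged seizure), and the library was compared with that of control mice at the same time-point. The miRNAs described are those with a count of at least 50 CPM (counts scaled to the column total) in either 8 h library, a limit of 176 counts in the control and 158 counts in the SE library. They number 164 of the 640 miRNAs counted in the series. Of the 164, 124 reached the limit in both libraries, 27 in SE alone and 13 in control alone. Just inside the limit, which was applied before any TMM adjustment, were miR-132-3p at 53.4 CPM and miR-1968-5p at 54.0 CPM, and just outside were miR-486b-3p at 49.3 CPM and miR-322-5p at 48.7 CPM.

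SE was triggered by 0.3 µg kainic acid injected into the amygdala of awake adult male C57BL/6JOlaHsd mice fitted with a guide cannula and surface electrodes, and midazolam or lorazepam (8 mg/kg) was given after 40 min. Controls are labelled PBS. Each library was made from 1 pool of plasma, 50 µL from each of 10 mice, from which Ago2 was precipitated with the antibody C34C6. There was 1 library a side, so no p-value is given and the spread between mice within a pool cannot be seen. The controls at 4 h and 24 h served as a yardstick of how far a level differed between libraries without SE. They are other time-points and not replicates of the 8 h control.

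Ago2 is the Argonaute protein that holds a miRNA and presents its seed, bases 2 to 8 from the 5′ end, to target mRNAs. A miRNA held by Ago2 survives in plasma outside vesicles, and plasma Ago2 carries miRNAs shed by blood cells, endothelium, liver, muscle and other organs, the brain among them. miRNAs with the same seed form a family that shares targets, and miRNAs whose hairpins lie close together are often cut from the same primary transcript.

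Mature sequences from RefSeq were matched to 144 of the 164 miRNAs, and those on which the results turn are shown 5′ to 3′ with the seed in capitals. The first set comes from the imprinted Dlk1-Dio3 region, where 10 miRNAs reached the limit, 4 of them in SE alone. None of the 6 at the limit in both libraries was lower in SE. The seeds all differ.
miR-127-3p: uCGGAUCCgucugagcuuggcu
miR-541-5p: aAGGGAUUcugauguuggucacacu
miR-136-5p: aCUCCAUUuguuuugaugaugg
miR-136-3p: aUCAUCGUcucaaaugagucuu
miR-434-3p: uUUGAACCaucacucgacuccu
miR-300-3p: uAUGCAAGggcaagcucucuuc
miR-381-3p: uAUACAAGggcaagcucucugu
The let-7 family is the reverse case, with 1 seed from hairpins spread over several chromosomes and no member higher in SE.
let-7a-5p: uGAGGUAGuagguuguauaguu
let-7e-5p: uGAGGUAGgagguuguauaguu
let-7f-5p: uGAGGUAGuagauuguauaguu
let-7g-5p: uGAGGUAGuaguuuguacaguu
Near-identical pairs are shown because the counting step could place a read with either member.
miR-10a-5p: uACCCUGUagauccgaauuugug
miR-10b-5p: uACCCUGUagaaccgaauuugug
miR-103-3p: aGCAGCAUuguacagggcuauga
miR-107-3p: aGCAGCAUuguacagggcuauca
miR-29a-3p: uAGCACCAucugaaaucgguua
miR-29c-3p: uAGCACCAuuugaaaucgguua
miR-182-5p and miR-183-5p come from 1 transcript and have related but unequal seeds, and the arms of miR-106b are shown because they moved apart.
miR-182-5p: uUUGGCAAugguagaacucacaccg
miR-183-5p: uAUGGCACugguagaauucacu
miR-106b-5p: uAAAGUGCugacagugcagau
miR-106b-3p: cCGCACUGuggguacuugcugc

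Depth was 3529563 counts in the control 8 h library and 3166964 in the SE 8 h library, within a range of 2043220 to 5405357 over all 7 libraries of the series. The red cell miRNA miR-486b-5p took 67.5% of the control and 62.5% of the SE counts, so the other miRNAs shared the remainder. Levels are given as CPM on library sizes adjusted by the trimmed mean of M-values (TMM) over the 7 libraries. Low counts gathered around 60.2 in the control and 51.9 in the SE library, taken here as the counts that 1 captured molecule left after amplification, and the 50 CPM limit then amounts to about 2.93 and 3.05 molecules. Of the miRNAs higher in SE, 27 of 57 had fewer than 10 such molecules in SE. Intervals given beside ratios are 95% and cover the counting of reads only. Reads copied from 1 molecule are not independent, so the intervals are narrower than molecules would give. Folds given as at least a value set a library without counts to 3 counts, which is under 1 such molecule. Such folds bound reads and not molecules.

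At 1.5-fold, the fold threshold of the study, 57 miRNAs (34.8%) were higher and 25 (15.2%) lower in SE than in control, with 82 in between. The median log2 fold change was 0.20. With library sizes taken without miR-486b-5p, every log2 fold change was 0.29 smaller, 41 miRNAs were higher and 45 lower, and the median was -0.09. Among the 124 miRNAs at the limit in both libraries, 30 (24.2%) were higher and 15 (12.1%) lower, with a median of 0.06. A miRNA that reached the limit in 1 library only was kept for its higher side, so groups of miRNAs are counted below among those in both, and the others are given by their values.

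**Figure D1:**
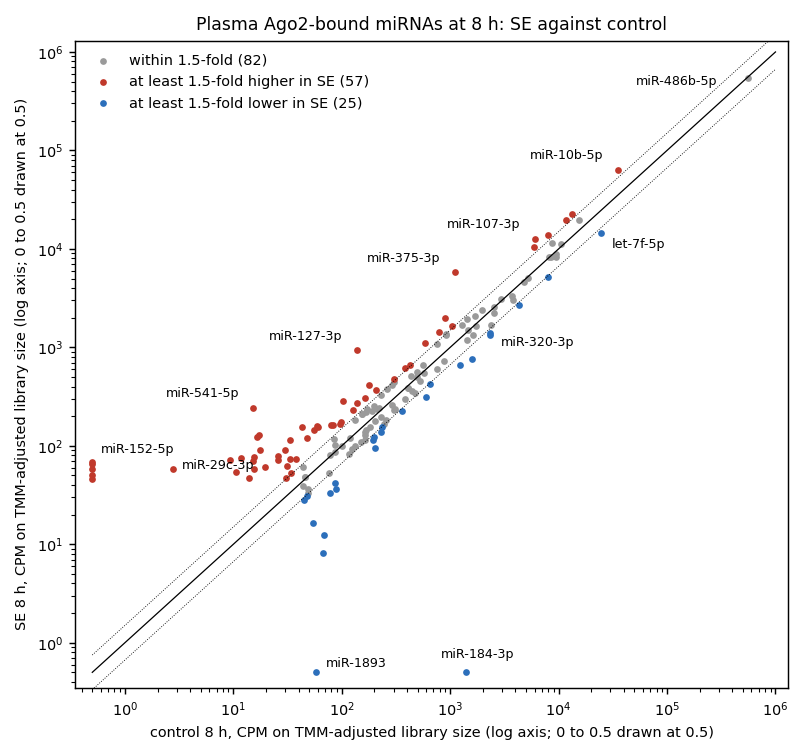
Level of each of the 164 miRNAs in control 8 h (x axis) and SE 8 h (y axis), in CPM on TMM-adjusted library sizes, both axes logarithmic, with 1 point per miRNA and dotted lines at 1.5-fold. The 57 higher miRNAs reach down to control levels of 0, while miR-184-3p and miR-1893 are the pair that lie at 0 in SE.

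The controls themselves differed between time-points. Control 4 h lay at least 1.5-fold from control 8 h for 53.1% of miRNAs, and control 24 h for 45.0%. Control 4 h had the fewest counts of the series (2043220), and miR-486b-5p took 76.1% of them. Its low counts gathered around 102, so 50 CPM there amounts to about 0.999 estimated molecules, against 3.09 in control 24 h. Low or absent levels in control 4 h are therefore coarse, and comparisons with all 3 controls carry this limit. A stricter count asked for SE 8 h to lie at least 1.5-fold outside all 3 controls, and 32 miRNAs (19.5%) were above and 10 (6.10%) below. Among the 124 in both, 16 (12.9%) were above and 7 (5.65%) below. The SE 8 h level lay inside the range of the controls for 72 miRNAs. In pooled plasma, release of a miRNA from more cells and release of more of it per cell cannot be told apart. Of the 57 higher miRNAs, 25 were not 1.5-fold above all 3 controls.

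**Figure D2:**
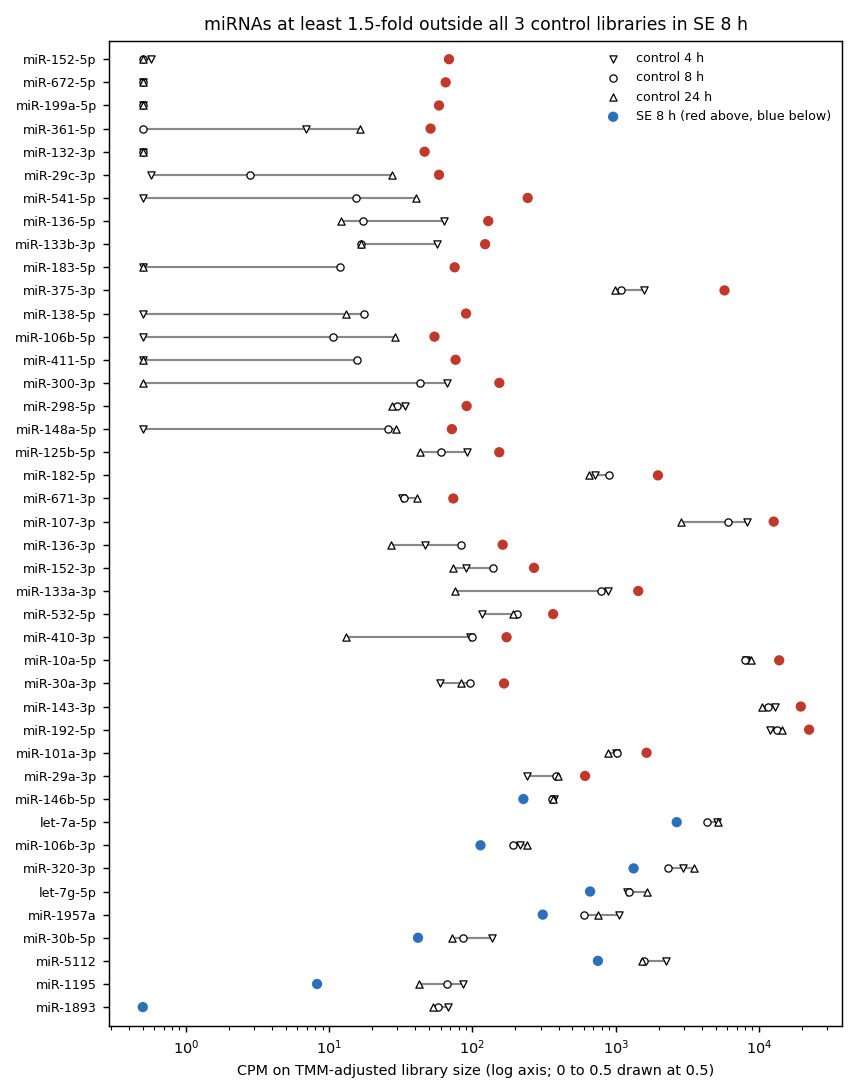
Levels in the 3 control libraries (open symbols joined by a grey line) and in SE 8 h (filled, red above and blue below) for the 42 miRNAs at least 1.5-fold outside all 3 controls, in CPM on TMM-adjusted library sizes on a log axis. miR-375-3p stands 3.63-fold above its highest control, and several miRNAs at the top have 0 or near 0 in every control.

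The clearest single difference at high depth was miR-375-3p, a miRNA of pancreatic islets and other endocrine and gut epithelial cells. Its level was 1586, 1098 and 984 CPM in controls at 4, 8 and 24 h, against 5758 CPM at 8 h after SE. This was 5.25-fold the 8 h control (95% interval 5.08 to 5.42, from 4733 and 20970 counts) and 3.63-fold the highest control. The other SE time-points (4 h, 24 h and 2 weeks) gave 1250, 1385 and 964 CPM, all within the range of the controls or below it. The hairpin lies on chromosome 1 at 74900658 to 74900721 of GRCm38, minus strand, between genes of its strand.

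Other miRNAs of the gut and liver list at the limit were less changed. miR-192-5p, made in liver, kidney and intestine, was 22428 CPM in SE 8 h against 12050 to 14443 in the controls, a log2 fold change of 0.74. Its seed partner miR-215-5p did not move with it, at 8318 CPM after SE beside 8496 CPM in its control. The liver miRNA miR-122-5p had 0 counts in both 8 h libraries and in all controls. Also under the limit, miR-194-5p was 0, 0 and 11.4 CPM in controls at 4, 8 and 24 h. It was 38.2 CPM in SE 8 h (139 counts), with 36.2 and 37.8 CPM in SE 4 h and SE 24 h.

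miR-182-5p and miR-183-5p belong to a cluster on chromosome 6 that is strongly expressed in sensory cells of retina and inner ear and in neuroendocrine cells. miR-182-5p lay between 657 and 895 CPM in the controls and at 1976 in SE 8 h, a log2 fold change of 1.14. miR-183-5p had 0 CPM in controls at 4 h and 24 h and 11.8 CPM at 8 h, against 75.2 CPM after SE. Both were above all 3 controls. For miR-182-5p the SE 4 h library was as high, at 2243 CPM, whereas miR-183-5p had 6.34 CPM there.

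The Dlk1-Dio3 region on chromosome 12 holds a large group of miRNAs expressed from the maternal chromosome and in adults mainly in brain, muscle and endocrine tissue. Of 41 of its miRNAs counted, 10 were at or above 50 CPM. Of these, 6 reached the limit in both libraries, and 5 of the 6 were at least 1.5-fold higher in SE (24.2% of all in both), with 3 above all 3 controls (12.9% of all in both). Their median log2 fold change was 1.21, from 0.01 to 2.76, beside 0.06 for all 124. With library sizes taken without miR-486b-5p, 4 of the 6 were higher and the median was 0.92, but miR-381-3p, the lowest, turned negative. The other 4 (miR-541-5p, miR-136-5p, miR-409-3p and miR-411-5p) reached the limit in SE alone.

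The most abundant of them, miR-127-3p, which is antisense to the retrotransposon-like gene Rtl1, was 640, 137 and 43.8 CPM in controls at 4, 8 and 24 h and 929 CPM at 8 h after SE. It was 6.79-fold higher than the 8 h control (interval 6.22 to 7.42) but only 1.45-fold above the control at 4 h. miR-541-5p, the largest relative difference of the region, was 0, 15.3 and 40.5 CPM in the controls and 243 in SE 8 h, and the other SE libraries held 6.15 to 50.3. It stood 6.0-fold above its highest control. miR-136-5p was 63.7, 17.2 and 12.2 CPM in the controls and 129 in SE 8 h, and its other arm miR-136-3p was 46.5, 83.7 and 27.1 against 163. Both arms of this hairpin were above every control.

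miR-300-3p, miR-410-3p and miR-411-5p were also above the controls. miR-300-3p had 562 counts in SE 8 h against 185 in its control, a log2 fold change of 1.85, and was at most 66.6 CPM in a control. miR-410-3p was 173 CPM against 95.8, 98.8 and 13.2, and miR-411-5p was 76.3 CPM against 0, 15.5 and 0. In contrast, miR-434-3p and miR-409-3p were higher than the 8 h and 24 h controls but not than control 4 h. miR-434-3p was 285 CPM in SE 8 h and 103 in control 8 h, yet 401 in control 4 h, and miR-409-3p was 70.0 CPM against 15.3, with 131 in control 4 h. miR-381-3p did not differ at 8 h (87.3 against 87.0 CPM) and was 605 CPM in control 4 h.

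Summed over the 41 miRNAs, the region gave 2216, 718 and 229 CPM in controls at 4, 8 and 24 h, and 1937, 2589, 847 and 255 CPM in SE at 4, 8, 24 h and 2 weeks. The SE 8 h sum was therefore 2589 against 718 in its own control, but close to the 4 h control. The difference was found in both stretches of hairpins that make up the region. The 4 miRNAs from hairpins at chr12:109585789-109595388 on the plus strand of GRCm38 (miR-127-3p, miR-434-3p and both arms of miR-136) included 3 in both libraries, all of them higher, with a median log2 fold change of 1.47. The 6 from chr12:109710175-109743795, where the noncoding RNA Mirg lies, included 3 in both libraries, of which 2 were higher, with a median of 0.81.

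**Figure D3:**
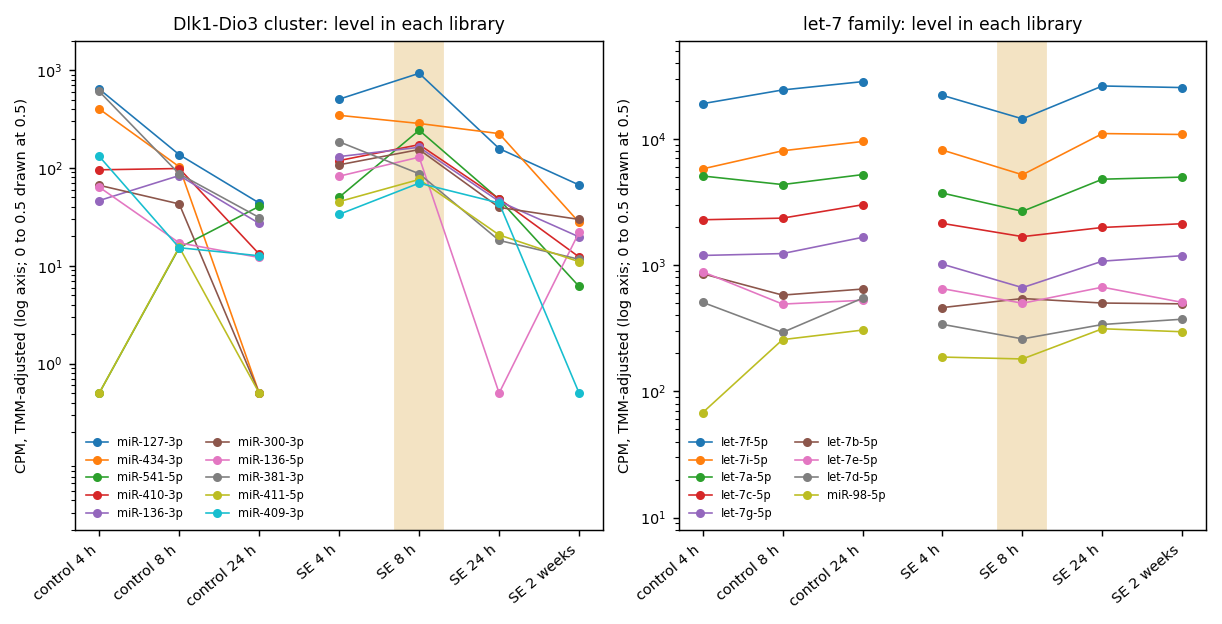
Level of each Dlk1-Dio3 miRNA (left, 10 lines) and each let-7 family miRNA (right, 9 lines) in the 3 control and 4 SE libraries, in CPM on TMM-adjusted library sizes on log axes, with SE 8 h shaded. Most left lines are higher in SE 8 h than in control 8 h, miR-541-5p and miR-411-5p are at 0 in control 4 h, and most let-7 lines dip at SE 8 h, where the summed level was 26128 CPM against 42065 in control 8 h.

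Of the neuronal list, 9 of 20 counted miRNAs reached 50 CPM, only 4 of them in both libraries. Of these 4, 3 were higher (24.2% of all in both), and all 3 (miR-127-3p, miR-434-3p and miR-410-3p) belong to the Dlk1-Dio3 region, so they add nothing separate from the counts above. The remaining miRNA in both was miR-128-3p. Another 5 reached the limit in SE alone. miR-132-3p, which neurons induce with activity, had 0 counts in all 3 controls and 169 counts in SE 8 h. In reads this was at least 66.7-fold higher than control 8 h, with the floor set at 3 counts in that library. miR-132-3p was 46.0 CPM at 4 h after SE, close to the 46.4 CPM at 8 h on the same TMM-adjusted scale. At 2 weeks it was 0. miR-138-5p, a brain-enriched regulator of dendritic spines, was 0, 17.6 and 13.2 CPM in the controls and 90.3 in SE 8 h.

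miR-9-5p, a miRNA of neural progenitors and neurons, was 78.0 CPM after SE beside 25.7 CPM in its control, but 70.0 CPM in control 4 h. miR-139-5p was 52.7 against 33.9 CPM and lay inside the range of the controls. miR-128-3p, the most abundant after SE, was 1181 CPM after SE beside 1431 CPM in its control, within 1.5-fold and inside the control range of 1072 to 2273 CPM. miR-124-3p, the defining miRNA of mature neurons, had 0 counts in both 8 h libraries. miR-218-5p of motor neurons was just under the limit, at 48.6 CPM before TMM adjustment in SE 8 h and 0 counts in its control.

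The study assigned many of the miRNAs it detected in these libraries to a tissue and a brain cell type, so these classes are not independent of the data. Of 26 brain miRNAs in both libraries, 10 were higher and 4 lower, beside 24.2% and 12.1% of all in both, and 6 were above all 3 controls, beside 12.9%. Their median log2 fold change was 0.22, and it was -0.08 with library sizes taken without miR-486b-5p, when 4 were higher and 8 lower. Of 21 neuronal miRNAs in both, 7 were higher and 3 lower, and 5 were above all 3 controls. Among glial classes, 3 of 7 oligodendrocyte, 3 of 15 astrocyte and 1 of 14 microglial miRNAs in both were higher. Of the glia-enriched list both miRNAs in both libraries, miR-29a-3p and miR-143-3p, were higher and above all controls. miR-143-3p is also characteristic of smooth muscle. In the ubiquitous class, 4 of 19 were higher. These shares lie on either side of the 24.2% of all in both. With library sizes taken without miR-486b-5p, 0 oligodendrocyte, 0 astrocyte, 1 microglial and 0 glia-enriched miRNAs in both were higher. In that setting 6 neuronal and 2 ubiquitous miRNAs in both were higher.

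Of 4 muscle and heart miRNAs counted, 3 reached the limit, and miR-133a-3p alone did so in both libraries. The other, miR-208b-3p, had 0, 62 and 97 counts in controls at 4, 8 and 24 h and 0 in SE 8 h. Such counts stand for few estimated molecules. miR-133a-3p, made in heart and skeletal muscle, was 888 and 793 CPM in controls at 4 h and 8 h, 75.5 in control 24 h and 1439 in SE 8 h. miR-133b-3p was 56.8, 16.7 and 16.7 CPM in the controls and 123 in SE 8 h. The passenger arm miR-133a-5p was 72.5 CPM against 9.28 in control 8 h, yet not above control 4 h, against which its log2 fold change was -0.54. miR-133a-3p and miR-133b-3p were above all controls, but the log2 fold change of miR-133a-3p was 0.86 and became 0.57, under 1.5-fold, with library sizes taken without miR-486b-5p. The list summed to 1051, 833 and 117 CPM in the controls and 1299, 1635, 267 and 120 CPM across the SE time-points, so both series were low from 24 h. miR-1a-3p and miR-206-3p were not analysed here.

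Some abundant miRNAs were higher by less than 2-fold. miR-10b-5p, encoded in the Hoxd cluster, was 62887 CPM after SE beside 35090 CPM in its control, a log2 fold change of 0.84, but 50762 in control 4 h. miR-10a-5p, encoded in the Hoxb cluster, was 13870 CPM against 7976 to 8804 in the controls and so lay above all of them. The pair differs by U12A, counted from the 5′ end with the miR-10a base first. miR-143-3p, characteristic of smooth muscle, was 19631 CPM against 10544 to 12938, while the SE 4 h library had 41308. miR-10a-5p, miR-10b-5p and miR-143-3p all had more at SE 4 h than at SE 8 h. With library sizes taken without miR-486b-5p their log2 fold changes were 0.51, 0.55 and 0.46, all under 1.5-fold.

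miR-107-3p, hosted by the pantothenate kinase gene Pank1, was 12700 CPM in SE 8 h and 8231, 6095 and 2864 in the controls. miR-103-3p, hosted by Pank2 and Pank3, had 709 counts in SE and 997 in control 8 h, a log2 fold change of -0.25. The sequences differ by G22C, with the miR-103 base first, and up to 2 mismatches were allowed in the matching, so the division of reads between them is uncertain. Their sum was 12895 CPM in SE 8 h against 3171 to 8516 in the controls. Likewise miR-29c-3p, with 213 counts in SE against 12 in control 8 h, differs from miR-29a-3p by C10U (miR-29a base first). miR-29a-3p, the more abundant, was 612 CPM against 242 to 396, and the family sum was 685 CPM after SE beside 389 CPM in its control. Both members lay above every control. With library sizes taken without miR-486b-5p, the log2 fold change of miR-29a-3p was 0.37, under 1.5-fold.

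The paralogous clusters of miR-23, miR-27 and miR-24, active in endothelium and muscle, differed from the 8 h control but not by 1.5-fold from all controls. miR-23a-3p had 1502 counts against 764, a log2 fold change of 1.22, and was 300 CPM in control 4 h against 177 at 8 h. miR-27b-3p was 10507 CPM against 5950, with 8313 in control 4 h, and miR-24-3p was 163 CPM against 80.2, with 202 in control 24 h. Of the miR-23a/27a/24-2 cluster, 2 of 3 miRNAs were 1.5-fold higher than control 8 h and 0 were 1.5-fold above all controls. miR-205-5p, an epithelial miRNA, was 160 CPM after SE against 58.9 in its control but 227 in control 4 h, and miR-429-3p of the epithelial miR-200 family was 144 CPM against 55.2, with 121 in control 4 h. Its family member miR-141-3p was within 1.5-fold, at 237 against 170 CPM.

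Several miRNAs were present in SE 8 h at a few estimated molecules and missing from its control. miR-152-5p had 250 counts against 0, at least 98.7-fold higher in reads, and miR-672-5p had 237 against 0, at least 93.5-fold higher in reads. miR-361-5p had 186 counts against 0 but was 16.5 CPM in control 24 h. miR-199a-5p had 213 counts against 1, a ratio of 252 with an interval of 44.8 to 10007. The estimated molecules behind these SE values were 3.58 to 4.82. For miR-152 the abundant arm moved the same way, as miR-152-3p was 269 CPM in SE 8 h and 72.7 to 140 in the controls.

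The let-7 family, which restrains growth genes such as Hmga2 and is abundant in differentiated tissue, was lower as a group. None of 9 members was higher, 4 were at least 1.5-fold lower (12.1% of all in both) and 2 were below all controls (5.65% of all in both). All 9 reached the limit in both libraries. The median log2 fold change was -0.51, from -0.90 to 0.02, and 8 of 9 values were negative. The 10 members counted summed to 26128 CPM in SE 8 h and to 35707, 42065 and 49908 CPM in the controls. The sums of the other SE time-points, in order, were 38834, 47000 and 46352 CPM, so the SE 8 h sum was under that of each of the other 6 libraries.

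let-7f-5p was the most abundant, with 14424 CPM in SE 8 h against 19029, 24444 and 28448 in the controls, a log2 fold change of -0.76. let-7g-5p was 664 CPM against 1194 to 1662, the largest relative decrease of the family at -0.90. let-7a-5p was 2670 CPM against 4351 to 5218. let-7i-5p was 5202 CPM against 5789 to 9545. In contrast let-7e-5p was 499 CPM after SE beside 492 CPM in its control. It differs from let-7a-5p by U9G and let-7f-5p differs by G12A, the let-7a base first. let-7g-5p differs from let-7a-5p at G12U and U18C. Since members lie within the mismatches allowed, single values are less certain than the sum.

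The lower members came from separate loci. On chromosome 13, let-7a, let-7d and let-7f hairpins share a stretch at chr13:48536012-48538272 on the minus strand of GRCm38. Of the 4 miRNAs encoded there, 2 were lower and none higher. let-7f-5p, 1 of these 2, also has a hairpin in an intron of Huwe1 on chromosome X. Its reads cannot be divided between the loci. let-7g, in an intron of Wdr82 on chromosome 9, and let-7i, on chromosome 10, were lower too. let-7e-5p lies in a cluster with miR-99b-5p and miR-125a-5p on chromosome 17, and none of these 3 reached 1.5-fold, with log2 fold changes of 0.02, -0.37 and 0.50.

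Other miRNAs below every control included miR-320-3p, which is made without Drosha, at 1335 CPM against 2307 to 3506. This miRNA was equally low in the other SE libraries, at 1047 to 1322 CPM. miR-146b-5p, induced in inflammation, was 227 CPM against 360 to 371, while its seed partner miR-146a-5p was 1088 CPM against 750 in control 8 h and 907 and 952 in the others. The pair differs by G18A and U21C (miR-146a base first). miR-30b-5p was 41.7 CPM against 72.0 to 137.

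miRBase entries numbered 1000 or above were added late, and many of them rest on few reads. Of 13 in both libraries, 6 were lower (12.1% of all in both), 0 were higher and 2 were below all controls, with a median log2 fold change of -0.52. miR-5112 was 753 CPM against 1527 to 2246, and miR-1957a was 310 CPM against 598 to 1054. miR-1195 was 8.24 CPM against 42.3 to 85.5. miR-1893 had 0 counts in SE 8 h and 247 in control 8 h, at least 69.5-fold lower in reads.

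The steepest decrease belonged to miR-184-3p, a miRNA of corneal and other epithelia. It had 6000 counts (1391 CPM) in control 8 h and none in SE, at least 1689-fold lower in reads. However, it was 1.15 CPM in control 4 h and 29.1 in control 24 h, and 0.357 to 18.3 in the other SE libraries. The level in control 8 h thus stood apart from the other 6 libraries.

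**Figure D4:**
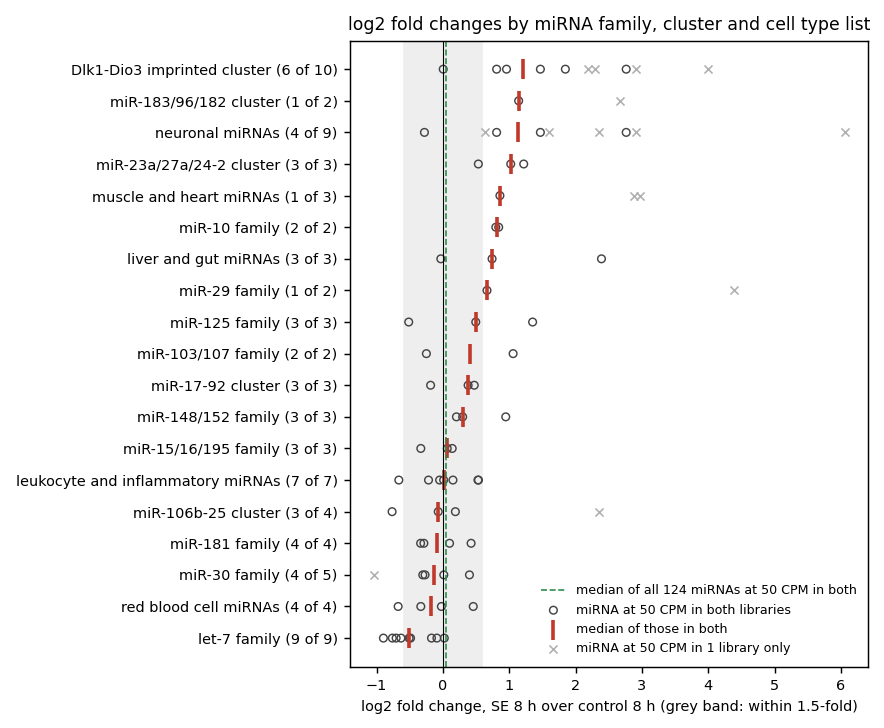
log2 fold change of SE 8 h over control 8 h for each miRNA of 19 families, clusters and cell type lists, as circles where it reached 50 CPM in both libraries and as grey crosses where it did so in 1 only, with the median of the circles (red bar), the median of all 124 miRNAs in both (dashed line at 0.06) and the range within 1.5-fold (grey band). The Dlk1-Dio3 median stands at 1.21 over 6 miRNAs, and the let-7 family lies lowest at -0.51 over 9.

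Blood cell miRNAs were measured as a check on the plasma. None of the 4 red cell miRNAs at the limit was higher, 1 (miR-144-5p) was lower and their median log2 fold change was -0.18. miR-451a had 39 counts in control 8 h and 33 in SE 8 h, or 9.04 and 9.06 CPM. Its ratio to miR-23a-3p was 0.0510 and 0.0220, with miR-23a-3p itself higher in SE. Since the miR-451a counts were under 1 estimated molecule in each library, this ratio cannot show red cell content. miR-16-5p was 3780 CPM in the control and 3003 CPM after SE. miR-486a-5p had 0 counts in both 8 h libraries, and its reads cannot be told from those of miR-486b-5p. None of 7 leukocyte and inflammatory miRNAs was higher and 1, miR-146b-5p, was lower, with a median of 0.01 that turned to -0.28 with library sizes taken without miR-486b-5p. Of 7 platelet and endothelial miRNAs 1 was higher, miR-24-3p. miR-155-5p of activated leukocytes had 70 and 50 counts.

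Arms of the same hairpin offered a further comparison. For 23 hairpins each arm was at the limit in either 8 h library, and in 14 both had a log2 fold change on the same side of 0. Some arms reached the limit in SE alone (miR-152-5p, miR-133a-5p, miR-136-5p and miR-106b-5p among them) or in control alone (miR-223-5p). Such arms were kept for their higher side. Of all 164 miRNAs, 96 had a log2 fold change above 0. The share for unrelated arms was not worked out, so the 14 do not show that arms moved together. miR-106b-3p was 114 CPM in SE 8 h, below its controls at 194 to 241, whereas miR-106b-5p was 54.4 CPM against 10.7 in control 8 h and at most 28.9 in a control. The 2 arms therefore lay on opposite sides of all controls, the -5p arm with 198 counts in SE and 46 in control. For miR-223, a myeloid miRNA, the -3p arm was 235 CPM against 212 and the -5p arm 12.4 against 69.1, but miR-223-5p was 0 in control 24 h. For miR-144, a red cell miRNA, the -3p arm was 213 CPM against 155 and the -5p arm 124 against 197.

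Among the 20 seeds shared by at least 2 miRNAs, covering 55 miRNAs, the seed with most members was GAGGUAG of let-7. The miR-181 seed ACAUUCA had 4 members, none of them 1.5-fold different, with a median of -0.09. Sequence length did not set higher and lower miRNAs apart, with a median of 22 bases in each. Median GC content was 47.8% in 51 higher, 50% in 19 lower and 45.5% in 74 other miRNAs with a sequence.

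Against the other SE libraries, 9 of the 32 miRNAs above all controls were also at least 1.5-fold above SE 4 h, 24 h and 2 weeks. They were miR-375-3p, miR-541-5p, miR-136-5p, miR-411-5p, miR-138-5p, miR-183-5p, miR-152-5p, miR-672-5p and miR-199a-5p. Only miR-375-3p reached 50 CPM in both 8 h libraries. The others reached it in SE 8 h alone and were kept for that high side, which favours a level above other libraries. Relative to the highest of the other SE libraries, miR-541-5p was 2.28 and miR-375-3p 2.06 higher on the log2 scale. Of the 10 below all controls, 4 were also 1.5-fold below the other SE libraries, namely let-7g-5p, miR-106b-3p, miR-1195 and miR-1893. Of these, miR-1195 and miR-1893 reached the limit in control 8 h alone.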

How the data were processed

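Raw counts per miRNA were deposited by the authors as 1 table of 640 miRNAs by library, and the 7 plasma Ago2 libraries were used here. Per the study's methods, libraries were prepared with a TruSeq small RNA kit at halved volumes, and those methods mention no molecular identifiers. Reads were matched to miRBase by BLASTn in Chimera with up to 2 mismatches. The methods name mouse miRBase version 21, other versions are not given in the sources used here, and the labels name edgeR and limma. Members, lists and classes were chosen with earlier results of these data known.

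TMM factors came from edgeR 4.0.16 over the 7 libraries. A miRNA was called at 1.5-fold between TMM-adjusted CPM, with no p-value. Counts of 3 or fewer were set to a floor of 3 counts for fold changes, a library with 1 to 3 counts being printed as the ratio found with its counting interval, and no fold was given where both libraries were at or under it. The reads per molecule were read from the mode of a kernel density of ln counts between 6 and 300 (bandwidth 0.15). Hairpin positions were taken from RefSeq and GENCODE M21 on GRCm38, and hairpins within 10 kb on 1 strand formed a cluster. The fold, bound and interval steps were tested on simulated data.

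Named miRNAs were the 10 largest increases and 10 largest decreases at 50 CPM in both libraries, those with 3 counts or fewer in 1 library, the 10 most abundant, and the extremes of each list. The following were named after their values were seen: miR-136-3p, miR-409-3p, miR-411-5p, let-7i-5p, miR-1195, miR-223-3p, miR-223-5p and the miRNAs next to the CPM limit. Alternatives changed the scaling, the filter, the fold, the control and an edgeR exact test at a set dispersion.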

Additional observations from a re-analysis of the deposited data

Results flagged for a closer look

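For 4 of the named miRNAs SE and control differed by at least 1.5-fold at 8 h and by at least 1.5-fold the other way at both 4 h and 24 h, a difference that was not tested since each time-point has 1 library a side. The log2 fold change of miR-139-5p was 0.64 at 8 h, -1.99 at 4 h and -2.25 at 24 h. miR-205-5p was 1.44 at 8 h, -0.80 at 4 h and -2.08 at 24 h. miR-1968-5p was 1.75 at 8 h, -2.64 at 4 h and -1.77 at 24 h. miR-144-5p was -0.67 at 8 h, 6.73 at 4 h and 0.80 at 24 h, where control 4 h held a single count of it. The SE 8 h level of miR-139-5p, miR-205-5p and miR-1968-5p lay inside the range of the 3 controls. miR-139-5p had 132, 146 and 228 counts in controls at 4, 8 and 24 h, and 81, 192 and 34 in SE. miR-1968-5p had 60 control and 171 SE counts at 8 h. Such counts stand for few estimated molecules.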

How the results depend on the processing

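No paired analysis was possible because there was 1 library a side. Counts below are miRNAs higher, lower, above all 3 controls and below all 3 controls, which were 57, 25, 32 and 10 as reported. Scaling by library size, by TMM over the pair or by DESeq2 size factors gave 52 higher and 31 lower, within 1.5 times of the reported counts. Without miR-486b-5p in the library size there were 41, 45, 21 and 17, and the median of 0.20 became -0.094. At 50 CPM in both libraries the counts were 30, 15, 16 and 7 with a median of 0.055, at 100 CPM in either they were 36, 18, 21 and 8 with a median of 0.094, and with at least 10 estimated molecules they were 30, 16, 17 and 7 with a median of 0.094. At 10 CPM they were 146, 93, 92 and 16, with any count 160, 103, 103 and 16, and at 2-fold 35, 10, 17 and 3. Against control 4 h 38 were lower, against control 24 h 41 were lower with a median of -0.028, and against the mean of the 3 controls the median was 0.039. An edgeR exact test added to the fold kept all 57 and 25 at a biological coefficient of variation of 0.1, 46 and 12 at 0.2, and 21 and 4 at 0.4. Leaving out 1 control gave 35 to 48 above and 15 to 17 below.

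Of the miRNAs named by rule and past 1.5-fold, 9 changed sign against another control. So did miR-409-3p and miR-223-5p, which were named after their values were seen. Against control 4 h, miR-133a-5p was -0.54, miR-139-5p -0.52, miR-1968-5p -0.43, miR-205-5p -0.51, miR-342-3p -0.70, miR-434-3p -0.49 and miR-144-5p 6.17. Against control 24 h, miR-139-5p was -0.13, miR-205-5p -0.10, miR-24-3p -0.31 and miR-3960 0.11, and against the mean of the controls miR-139-5p was -0.082. The cause was not tested. The 1 pool a side, the few molecules behind low levels and the distance between control time-points limit these comparisons.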

Other observations

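Some abundant miRNAs were close to their 8 h control. miR-22-3p, found in most tissues, was 19609 CPM in SE 8 h and 15510 in control 8 h. miR-21a-5p was 8263 and 8194 CPM, with 6618 to 12939 in the controls. miR-30a-5p was 11572 and 8763 CPM, and its other arm miR-30a-3p was 166 CPM, above controls at 59.7 to 96.7. miR-92a-3p was 8312 and 9446 CPM, miR-191-5p 8963 and 9484, and miR-181a-5p 11328 and 10561. The blood cell miRNA miR-191-5p ranged from 8764 to 18263 CPM over the controls, a wider range than its difference at 8 h.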
